A study of Arabidopsis thaliana with 6 samples.

Results

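The 8 genes described here are named for proteins of the small (30S) ribosomal subunit of the plastid and lie in the plastid genome of *Arabidopsis thaliana*. They are *rps2*, *rps3*, *rps4*, *rps14*, *rps15*, *rps16*, *rps18* and *rps19*, and each was taken because a probe set of the array is assigned to it alone. Whether each gene yields its protein was not tested. *rps7* and *rps12*, whose probe sets are assigned to several gene records, are left out of the 8 and given apart. The 8 genes are among 69 plastid genes with a probe set of their own and among 22746 probe sets tested.

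Transcripts were measured in whole seedlings (roots, hypocotyls and cotyledons together) of *rcb-10* and of Col-0, the wild type. *rcb-10* is a T-DNA insertion allele of *RCB* (*REGULATOR OF CHLOROPLAST BIOGENESIS*) in the Col-0 background. It is the only *RCB* allele on these arrays. Seeds of both genotypes were kept for 4 days in the cold and dark on medium without sucrose. They then grew for 4 days under continuous red (R) light of 10 μmol photons m−2 s−1. Each genotype was grown and sampled as 3 biological replicates, each read on its own ATH1 array, where several short oligonucleotides, together called a probe set, report 1 transcript. *RCB* itself is not analysed here, so that the labels were not checked through the disrupted gene.

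The plastid ribosome is of the bacterial type. Its RNAs and some of its proteins are made in the plastid, and the remaining proteins are encoded in the nucleus and imported. Plastid genes are transcribed by PEP, a bacterial-type polymerase whose core is itself plastid-encoded, and by NEP, a phage-type polymerase encoded in the nucleus. Genes of the photosystems depend mainly on PEP, the *rpoB* operon is read by NEP, and ribosomal protein genes lie in operons that either enzyme can read. In *Escherichia coli*, 30S proteins join the 16S rRNA in an order, with S4 and S15 binding the bare RNA, S16, S18 and S19 joining after them, and S2, S3 and S14 among the last.

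The signals are linear intensities without a physical unit, and the authors had brought all arrays to 1 trimmed mean. They were compared as log2 values with limma across all probe sets, and a gene was called at a Benjamini-Hochberg adjusted p under 0.05. Of the 8 genes, 5 were higher in *rcb-10* (*rps15*, *rps2*, *rps19*, *rps3* and *rps4*), 1 was lower (*rps14*) and 2 did not pass (*rps16* and *rps18*). Over all probe sets tested, 6.76% were called higher and 10.2% lower. With each array centred on its median these shares were 11.2% and 6.56%, and 63.1% of all calls were higher in place of 39.9%. The 8 log2 changes ran between −1.12 and 2.81 with a median of 0.79, beside a median of −0.04 over all probe sets. At the 2-fold threshold of the study's methods, 3 of the 8 were higher (*rps15*, *rps2* and *rps19*) and 1 was lower (*rps14*). The shares of all probe sets were 2.80% higher and 4.41% lower. Which genes pass depends on the scaling, with a log2 change of 0.97 for *rps19* after quantile normalization and 1.06 for *rps3* with median centring. In whole seedlings, a change in the number of plastids or of cells of a type and a change in RNA per cell cannot be told apart.

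**Figure D1:**
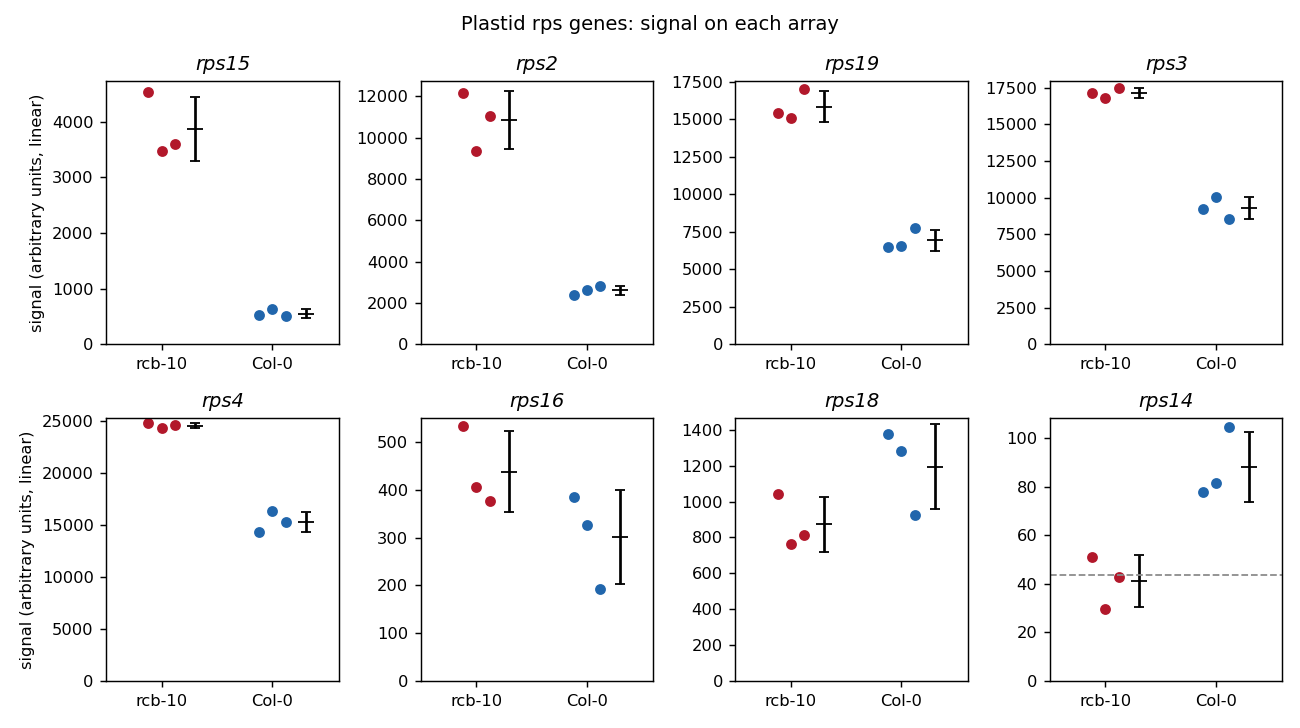
Signal of each plastid *rps* gene on each array, on a linear axis that starts at 0, with the 3 *rcb-10* arrays (red) left of the 3 Col-0 arrays (blue) and the mean ± SD of each genotype in black. The dashed line in the *rps14* panel is the highest trp control signal, 43.8. The genotypes overlap only for *rps16* and *rps18*.

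Among the genes for the earliest 30S proteins, *rps15* showed the largest rise of the 8. Its signal was 4531, 3476 and 3604 in *rcb-10* replicates 1 to 3, against 518, 638 and 501 in Col-0 replicates 1 to 3. The lowest *rcb-10* array lay several fold above the highest Col-0 array. The signal averaged 3871 ± 576 in *rcb-10* and 552 ± 74.6 in Col-0 (SD, n = 3 arrays each), which is 7.0-fold higher (log2 change 2.81, standard error 0.17, adjusted p of limma 0.00381).

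*rps4*, whose bacterial counterpart S4 nucleates assembly of the body of the subunit, was also higher in *rcb-10*. Its signal was 24758, 24265 and 24548 in *rcb-10*, against 14315, 16289 and 15252 in Col-0. The *rcb-10* arrays were nearly identical, with a coefficient of variation of 1.01%, and all lay above the Col-0 arrays, where it was 6.46%. The log2 change was 0.68 (1.61-fold, standard error 0.11, adjusted p of limma 0.0156). This call was lost without Col-0 replicate 1 (adjusted p = 0.0511 in limma) or without *rcb-10* replicate 1, 2 or 3 (0.0526, 0.0601 and 0.0611). The brightest probe set of any kind had a signal of 33091 to 35350.2 on the *rcb-10* arrays and 31813 to 33798 on the Col-0 arrays. Whether this probe set, or others near that signal whose changes are given here (*rps7*, *rpl36*, *rpl2*, *rpl22* and *rps12*), was limited by the scanner's range was not tested.

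Of the genes for proteins that join next, *rps19* was higher in *rcb-10*. S19, its bacterial counterpart, sits in the head of the subunit. The signals were 15419, 15118 and 17016 in *rcb-10*, against 6461, 6559 and 7762 in Col-0, without overlap. They averaged 15851 ± 1019.9 in *rcb-10* and 6927 ± 724 in Col-0 (SD, n = 3 each). The rise was 2.29-fold (log2 change 1.20, standard error 0.13, adjusted p of limma 0.00725).

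For *rps16*, the signals were 535, 406 and 376 in *rcb-10*, against 385, 326 and 193 in Col-0. Only Col-0 replicate 1 reached into the range of the mutant, and Col-0 replicate 3 was the lowest of all. Its log2 change of 0.59 had a 95% interval of −0.16 to 1.33 and did not pass (standard error 0.30, adjusted p of limma 0.239). The interval holds 0 and reaches past a 2-fold rise. The Col-0 arrays differed most among themselves here, with a coefficient of variation of 32.7%, the highest of the 8 genes in either genotype.

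The gene *rps18* encodes the partner of S6 on the platform of the subunit. Its signal was 1045, 761 and 812 in *rcb-10*, against 1378, 1280 and 925 in Col-0, so that *rcb-10* replicate 1 lay above Col-0 replicate 3. The log2 change was −0.45, with a 95% interval of −0.97 to 0.08 (standard error 0.21, adjusted p of limma 0.211). The interval holds 0 and ends just short of a 2-fold fall.

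Among the late-joining proteins, the genes *rps2* and *rps3* were higher in *rcb-10*. The signal of *rps2* was 12145, 9360.2 and 11041 in *rcb-10*, against 2391, 2633 and 2818 in Col-0. Every *rcb-10* array stood more than 3-fold above every Col-0 array. The means were 10849 ± 1402 in *rcb-10* and 2614 ± 214 in Col-0 (SD, n = 3 each), a 4.14-fold rise (log2 change 2.05, standard error 0.15, adjusted p of limma 0.00433).

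S3, the counterpart of the *rps3* product, lines the channel through which mRNA enters the ribosome. Its gene gave signals of 17134, 16798 and 17513 in *rcb-10*, against 9224, 10076 and 8550.4 in Col-0. The groups did not overlap, and the *rcb-10* arrays spread by a coefficient of variation of 2.09%. The rise was 1.85-fold (log2 change 0.89, standard error 0.11, adjusted p of limma 0.0105), below the 2-fold threshold of the methods. With median centring the log2 change was 1.06, past that threshold.

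The only gene of the 8 that was called lower in *rcb-10* was *rps14*. Its signals were 51.0, 29.6 and 42.7 in *rcb-10*, against 78.1, 81.8 and 105 in Col-0. The probe sets for trp, a bacterial control transcript taken here as background, reached 43.8, and 2 of the 3 *rcb-10* arrays were at or below that level while the 3 Col-0 arrays were above it. The log2 change was −1.12 (standard error 0.24, adjusted p of limma 0.0336), and it was −0.92 when low signals were raised to the trp level. The call was lost without Col-0 replicate 1, 2 or 3 or *rcb-10* replicate 2 or 3 (adjusted p of limma 0.0681 to 0.0868), with median centring (0.0534) and with the methods' t-test (0.0709). The other 7 genes were above the trp level on all 6 arrays.

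**Figure D2:**
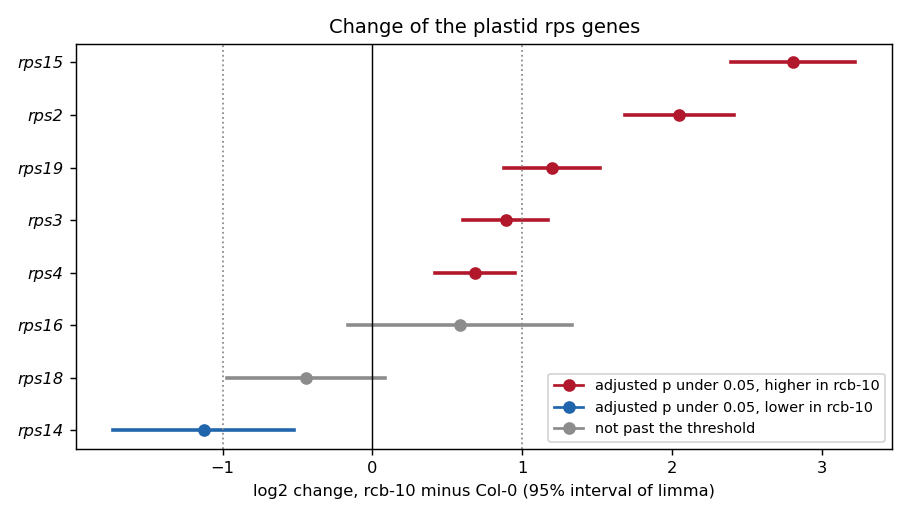
Log2 change of each gene, *rcb-10* minus Col-0, with the 95% interval of limma, ordered from the largest rise to the largest fall. Dotted lines mark a 2-fold change. The intervals of *rps16* and *rps18* include 0, and that of *rps15* (2.39 to 3.22) lies above those of the other genes except the top end of *rps2* (2.41).

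In the order of the changes, neighbours were set against each other through their log2 difference on each array, as a description. The step between *rps15* and *rps2* (0.76 on the log2 scale) and that between *rps2* and *rps19* (0.85) were seen without overlap between the genotypes. So were the steps between *rps3* and *rps4* (0.20), *rps16* and *rps18* (1.03) and *rps18* and *rps14* (0.68). Between *rps19* and *rps3* (0.31) and between *rps4* and *rps16* (0.10), the genotypes overlapped, so that the order of these neighbours is not settled beyond their spread. The steps without overlap do not settle the order either, because the genes were sorted on the same arrays, which favours separation. The limma intervals of neighbours also overlapped, except those of *rps2* and *rps19*. Single arrays also moved with several genes at once. *rcb-10* replicate 1 was the highest *rcb-10* array for 6 of the 8 genes, and replicate 2 was the lowest for 7.

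The arrays of the genotypes did not overlap for 6 of the 8 genes, as for 40.6% of all probe sets. In 5 of them *rcb-10* was above Col-0, as in 17.4% of all probe sets, and in 1 it was below, as in 23.1%.

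**Figure D3:**
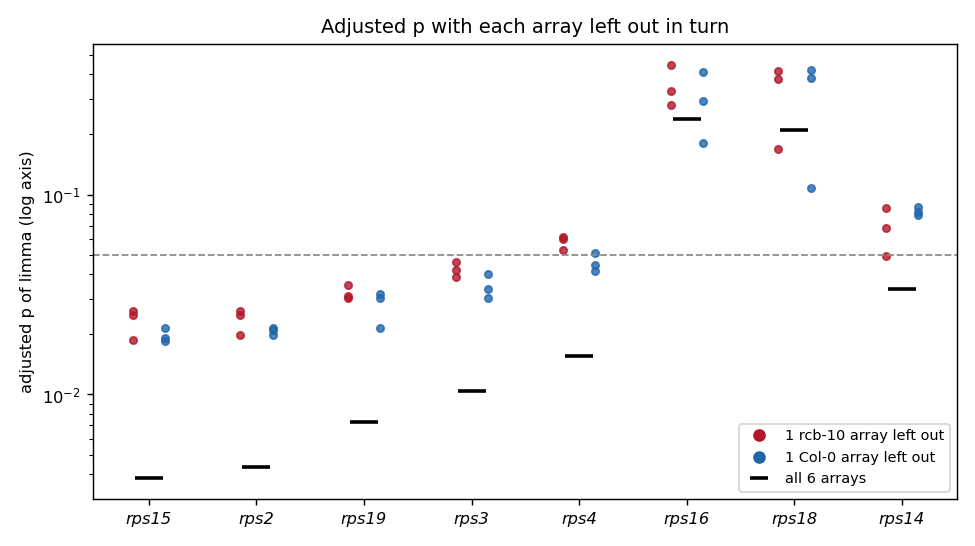
Adjusted p of limma for each gene with all 6 arrays (black bars) and with 1 *rcb-10* array (red) or 1 Col-0 array (blue) left out, on a log axis. The dashed line is 0.05. *rps15*, *rps2*, *rps19* and *rps3* stay below it in all 6 refits, *rps4* in 2 and *rps14* in 1.

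Position in the plastid genome shows these genes in different surroundings, and the genes next to them (protein-coding genes only, in the order of the TAIR10.1 annotation) did not all move the same way. *rps2* lies between *rpoC2* and *atpI*. *rpoC2*, which encodes a subunit of PEP, was at 4353 ± 329 in *rcb-10* and 658 ± 21.4 in Col-0 (SD, n = 3 each; log2 change 2.72, adjusted p of limma 0.00381). *atpI*, a gene for a membrane subunit of the ATP synthase, had a log2 change of 0.49 that did not pass (adjusted p of limma 0.123). The value of *rps2*, 2.05, thus stood between those on its sides.

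*rps15* lies between *ndhH*, a gene for the plastid NDH complex, and *ycf1*, a gene for a large protein of the inner envelope. *ndhH* was at 1304 ± 71.4 in *rcb-10* and 265 ± 29.5 in Col-0 (SD, n = 3 each; log2 change 2.30, adjusted p of limma 0.00381). The probe set of *ycf1*, which 2 gene records share, was at 17457 ± 1299 in *rcb-10* and 4550.4 ± 123 in Col-0 (log2 change 1.94, adjusted p of limma 0.00381). All 3 neighbouring genes rose here.

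*rps3* and *rps19* belong to the long ribosomal protein operon and lie on either side of *rpl22*, a gene for a protein of the large subunit. *rpl22* was at 21182 ± 1154 in *rcb-10* and 10118 ± 814 in Col-0 (SD, n = 3 each; log2 change 1.07, adjusted p of limma 0.00787). On the other side of *rps3*, *rpl16* rose by 1.41 on the log2 scale (adjusted p of limma 0.00438). The probe set shared by the 2 records of *rpl2*, beside *rps19*, had a log2 change of 0.51 (adjusted p of limma 0.0354), and that call was lost with any 1 array left out (up to 0.110) and after quantile normalization. Further along the operon, *rpl14* rose by 1.32, *rpl36* by 1.71 and *rpoA*, for the alpha subunit of PEP, by 1.52 on the log2 scale (adjusted p of limma 0.00518, 0.00381 and 0.00433).

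*rps18* is flanked by *rpl33* and *rpl20*, both genes for large-subunit proteins, which moved in opposite directions. *rpl33* was at 2097 ± 456 in *rcb-10* and 6350.1 ± 1104 in Col-0 (SD, n = 3 each; log2 change −1.61, adjusted p of limma 0.0128). *rpl20* was at 3533 ± 430.0 in *rcb-10* and 570.5 ± 65.4 in Col-0 (log2 change 2.63, adjusted p of limma 0.00381). *rps18* and *rpl33* are known to be read from the same strand, and *rpl20* from the other.

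*rps14* lies next to *psaB*, a photosystem I reaction centre gene with which it is known to be cotranscribed, and to *psbZ*, a photosystem II gene on the opposite strand. The log2 change of *psaB* was −0.42 (signals 16087, 15513 and 17349.9 in *rcb-10*, against 21046, 21727 and 22791 in Col-0) and missed the threshold (adjusted p of limma 0.0523). It passed with quantile normalization, array weights, the variance trend, the filter on dim probe sets, low signals raised and the methods' t-test. *psbZ* was at 3079 ± 664 in *rcb-10* and 10709 ± 741 in Col-0 (log2 change −1.82, adjusted p of limma 0.00680).

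*rps4* lies between *ycf3*, an assembly factor gene of photosystem I, and *ndhJ*. *ycf3* was at 13616 ± 1421 in *rcb-10* and 3453 ± 457 in Col-0 (SD, n = 3 each; log2 change 1.98, adjusted p of limma 0.00433). *ndhJ*, of the NDH complex, was at 1553 ± 444 in *rcb-10* and 3025 ± 214 in Col-0 (adjusted p of limma 0.0344), a call kept in 1 of the 6 refits that leave out an array (up to 0.101) and lost with median centring and with the methods' t-test.

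*rps16* stands between *matK*, the maturase gene, and *psbK*, of photosystem II. *matK* had a log2 change of −0.06 (adjusted p of limma 0.861). That of *psbK* was −1.15 (adjusted p of limma 0.0309), kept in 1 of the 6 refits that leave out an array (up to 0.0954) and lost with the methods' t-test.

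**Figure D4:**
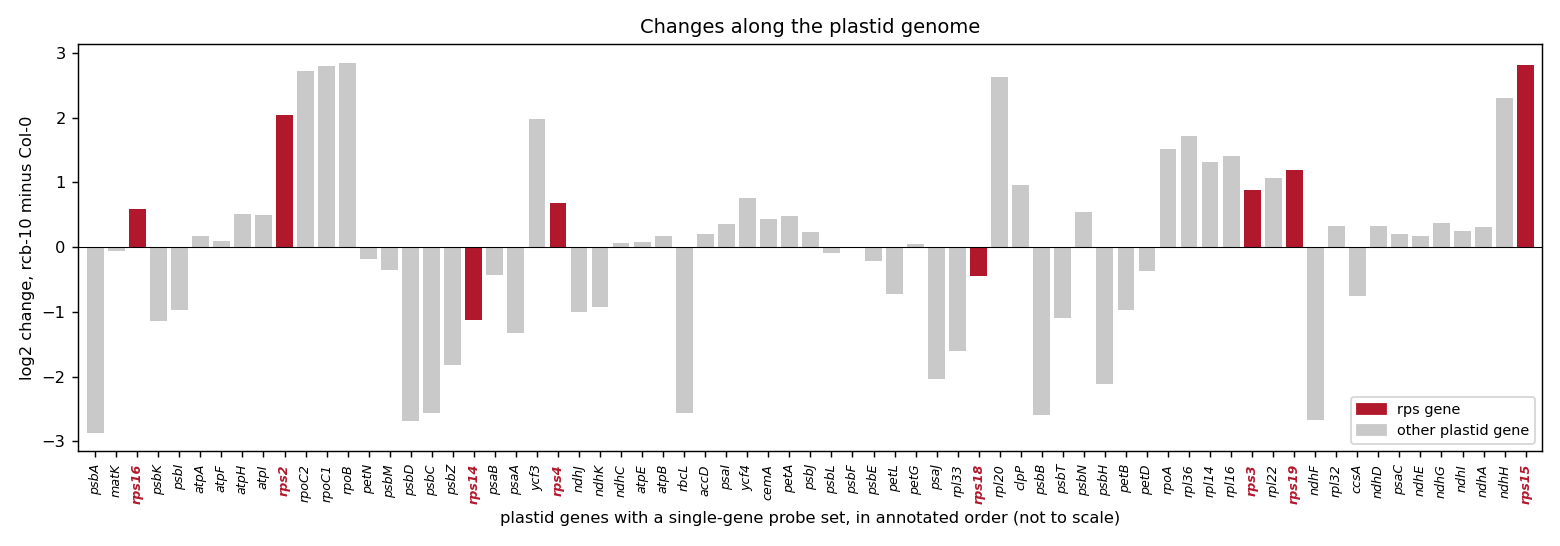
Log2 change, *rcb-10* minus Col-0, of the 69 plastid genes with a single-gene probe set, in annotated order and not to scale, with the 8 *rps* genes in red. *rps2* stands beside *rpoC2* and *rps15* beside *ndhH*, both of which rose. *rps3* lies within a run of rising ribosomal protein genes and *rps19* at its end, and *rps14* stands among genes with negative values.

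Both plastid *rps* genes whose probe sets are assigned to several records were also called higher in *rcb-10*. *rps7*, whose bacterial counterpart S7 nucleates the head of the subunit, gave 28823, 28385 and 29248 in *rcb-10*, against 17263, 21797 and 19385 in Col-0 (log2 change 0.57, adjusted p of limma 0.0362). It passed in none of the refits without 1 array (up to 0.108), nor after quantile normalization. *rps12*, a trans-spliced gene for a protein of the decoding site, has 2 probe sets. One gave 21985, 20135 and 20814 in *rcb-10*, against 7997, 9847 and 8408 in Col-0 (log2 change 1.27, adjusted p of limma 0.00643). The other gave 3403, 2759 and 2723 in *rcb-10*, against 1199, 1969 and 1630.2 in Col-0 (log2 change 0.91, adjusted p of limma 0.0438). That call was lost with any 1 array left out (up to 0.118), after quantile normalization, with low signals raised and with the methods' t-test.

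Beside the large-subunit genes of the plastid, the 8 *rps* genes also had values in both directions. Of 7 plastid *rpl* genes with a probe set of their own (9 listed), 5 were higher, 1 was lower (*rpl33*) and 1, *rpl32*, did not pass (log2 change 0.33, adjusted p of limma 0.552). Their median log2 change was 1.32, beside 0.79 for the 8 *rps* genes. All 4 genes of the PEP core were higher, with a median of 2.76. *rpoB* had signals that averaged 298 ± 2.38 in *rcb-10* and 41.8 ± 7.96 in Col-0 (SD, n = 3 each), where 1 of the 3 arrays was at or below the trp level.

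In the other direction, 13 of 27 genes of the photosystems, the cytochrome b6f complex and *rbcL* were lower, none was called higher in this fit, and their median log2 change was −0.73. With median centring, with low signals raised or with the variance trend, 2 of the 27 were called higher, and with the dimmest 25% left out or by the methods' t-test, 1 was. Without *rcb-10* replicate 2, or without replicate 3, 8 were lower. The change of *psbA*, for the D1 protein, was −2.87 on the log2 scale, and that of *rbcL*, for the large subunit of Rubisco, −2.55 (adjusted p of limma 0.00423 and 0.00381). Over the 61 plastid genes other than the 8, 13 were higher, 17 lower and 31 did not pass, with a median log2 change of 0.10. No test of the difference between these groups was made.

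**Figure D5:**
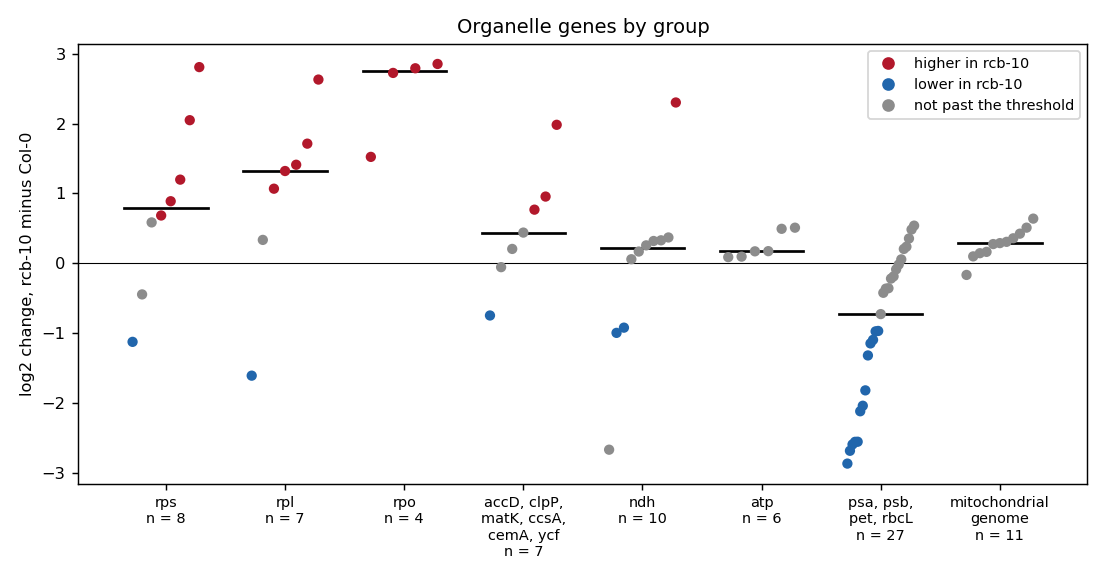
Log2 change, *rcb-10* minus Col-0, of single genes in groups of organelle genes, each point a gene and each black line the group's median. Red and blue mark an adjusted p under 0.05. The *rps* genes have values on both sides of 0 with 5 of 8 called higher, the *rpo* genes are all called higher, and 13 of the 27 genes of the photosystems, cytochrome b6f and *rbcL* are called lower.

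Of 14 listed nuclear genes for plastid 30S proteins, 3 have a probe set of their own and the others are not analysed here. *PSRP1*, for a plastid ribosome-binding protein, was at 10047 ± 336 in *rcb-10* and 4731 ± 65.1 in Col-0 (SD, n = 3 each; log2 change 1.09, adjusted p of limma 0.00553). *RPS6*, for the partner protein of S18, had a log2 change of 0.03 (adjusted p of limma 0.904), and *RPS10* one of −0.25 (adjusted p of limma 0.319).

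The RNA was amplified with a kit that primes from poly(A) tails, which most organelle transcripts lack or carry only briefly, so that a signal here need not follow the total amount of a plastid transcript. The control probe set for 25S rRNA, also a transcript without a stable tail, gave 14157 to 14586 in *rcb-10* and 9496 to 11334 in Col-0, without overlap. Its part in the results was not tested. Of 11 mitochondrial genome genes, none passed in limma, 1 had an unadjusted p under 0.05 and none passed the methods' t-test. After quantile normalization or median centring, with the dimmest 25% left out or with low signals raised, 1 was called higher. Their median log2 change was 0.29, and their summed signal was 1604 to 1791 in *rcb-10* and 1289 to 1506 in Col-0. Of the 11, 1 was at or below the trp level on all arrays and others on some arrays, which limits what these genes can show. The ratio of 3′ to 5′ control probe sets, a sign of RNA quality, was 3.37 to 3.63 in *rcb-10* and 3.36 to 3.90 in Col-0 for actin, and 0.893 to 0.969 in *rcb-10* and 0.942 to 1.02 in Col-0 for GAPDH. For ubiquitin it was 1.52 to 1.64 in *rcb-10* and 1.41 to 1.53 in Col-0. Of the 15 marker genes listed for green tissue, root and seed reserves only *EXPA7*, a root hair expansin gene, has a probe set of its own. It gave 86.0 ± 15.3 in *rcb-10* and 180.4 ± 39.7 in Col-0 (SD, n = 3 each; adjusted p of limma 0.0328, kept in 1 of the 6 refits without an array and lost with median centring, quantile normalization and the methods' t-test), and its part in the results was not tested. The labelled tissues could not be checked further.

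The genes whose values followed the mean of the 8 most closely over the 6 arrays were nuclear, as were most of the genes compared. At most 61 of those compared were plastid genes. Among 8786 other single-gene probe sets above the trp level on all arrays, the 5 with the highest Pearson r were *AT5G63620* (0.998), *AtSec20* (0.996), *AT4G10925* (0.996), *AT3G05950* (0.994) and *AT5G51970* (0.993), as a description over 6 arrays that share 2 genotypes. *AtSec20* encodes a SNARE protein, *AT3G05950* a germin-like protein and *AT5G51970* a sorbitol dehydrogenase. Their log2 changes were 0.96, 0.55, 0.97, 3.03 and 1.00 in that order. Of the 6 refits without 1 array, *AtSec20* passed in 0 (adjusted p of limma up to 0.0998) and *AT5G63620* in 4. *AT4G10925*, *AT3G05950* and *AT5G51970* passed in all 6. These 5 genes were picked on the same arrays for their likeness to a mean that already separates the genotypes. Their changes and calls are thus not a separate result. The mean log2 value of the 8 genes, each centred on its own mean, was 0.58, 0.27 and 0.40 in *rcb-10* replicates 1 to 3, against −0.41, −0.34 and −0.50 in Col-0 replicates 1 to 3.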

How the data were processed

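Probe set signals of 3 *rcb-10* and 3 Col-0 ATH1 arrays were analysed. The authors amplified total RNA (MessageAmp Premier kit). Processing in GeneSpring GX 12.1 with RMA is named in their methods. The values they deposited are linear intensities scaled on each array to the same trimmed mean (2% left out at each end), not RMA values on a log scale. The sources used here do not give the step between. Their log2 values were fitted with limma 3.58.1 in R 4.3.3 (lmFit and eBayes, no covariate), with no further normalization and no filter on low values. P-values were adjusted with Benjamini-Hochberg over the 22746 probe sets other than 64 array controls. Tables and plots were made with Python 3.11.15, pandas 2.3.3 and matplotlib 3.10.9, and the fit was tested on simulated data. The number of arrays limits the precision, and with 3 arrays a group the smallest p of an exact permutation test is 0.1.

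Genes were named through the probe table (13513 probe sets with 1 gene, 503 with several, 8730 not listed) and the TAIR10.1 annotation, which served for names and neighbours only. The genes named are the 8 members, the plastid genes set beside them, up to 4 genes of each list, and the 5 with the most similar pattern. The members and lists were chosen with earlier results of these data known. As alternatives, the fit was repeated after quantile normalization or median centring, without the dimmest 25% of probe sets, with low signals raised to the highest trp value, with a variance trend and robust variances, with array weights, with the replicate number blocked, with the methods' t-test, with fold thresholds of 1.5 and 2, with single-gene probe sets only, and with each array left out in turn. Probe-level values were not used here.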

Additional observations from a re-analysis of the deposited data

How the results depend on the processing

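Of 120 alternative fits of the 8 log2 changes, 47 left the log2 change as it was and altered at most its p, as with another variance estimate or other probe sets tested. The 8 changes kept their sign in the other 73. The side of the threshold was kept in 103 of the 120, a count that includes *rps16* and *rps18*, which passed in none. In the other 17 fits, a gene called in the main fit was no longer called. With an array left out, *rps4* ran between 0.64 and 0.73 and *rps14* between −1.30 and −0.91, the count of the 8 genes called lower was 0 or 1, and the count of all probe sets called, 3853, ran between 1256, with *rcb-10* replicate 3 removed, and 2224, with Col-0 replicate 3 removed. That count was 5951 with a variance trend and robust variances, 1663 with single-gene probe sets only, where fewer were tested, and 1642 at a fold of at least 2, where 3 of the 5 higher *rps* genes remained. The cause of the other differences was not tested. *rps14* was not called with median centring (log2 change −0.95) or with the methods' t-test (−1.12), which left 0 genes lower.

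The replicate numbers are not known to pair the arrays. The deviations of same-numbered arrays correlated at 0.03, −0.02 and 0.02, which cannot show whether those samples were grown or processed together. With the replicate number as a block, 0 of the 8 *rps* genes and 0 of all probe sets passed in limma (lowest adjusted p 0.0539), with 0 higher and 0 lower, while 7 of the 8 and 6823 of all had an unadjusted p under 0.05. The log2 changes in that fit were the same: 2.81 for *rps15*, 2.05 for *rps2*, 1.20 for *rps19*, 0.89 for *rps3*, 0.68 for *rps4* and −1.12 for *rps14* (adjusted p of limma 0.0539 to 0.0825).

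Median centring shifted the median of all probe sets by 0.17 on the log2 scale. Signals near the trp control level limit *rps14*.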
